A study of Homo sapiens with 8 samples.

Results

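The genes described here encode small nucleolar RNAs and small Cajal body RNAs. They were chosen by measured level, as the rows of the gene count table whose symbol starts with SNORD, SNORA or SCARNA followed by a number and whose mean raw count over the 8 libraries was at least 10. Of the 23459 genes in the table, 350 carried such a symbol and 178 reached that mean, of which 89 were SNORD genes (box C/D), 69 were SNORA genes (box H/ACA) and 20 were SCARNA genes (Cajal body). Total RNA was sequenced from Hct116, a human colorectal carcinoma cell line. In 4 libraries the cells had received 30 µM lenalidomide for 16 h, and in the other 4 an equivalent amount of DMSO, the solvent, for the same time. Lenalidomide is a thalidomide analogue that binds cereblon, the substrate receptor of a ubiquitin ligase. In both groups the medium was changed when treatment began, to one with heavy isotope-labelled amino acids or, in some replicates, with the isotope labels swapped. The sample labels do not identify the swapped replicates. The series' design calls the replicates biological and the study's methods call those of the matching proteomic samples technical, so p-values measure only the spread between these libraries.

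Box C/D RNAs guide ribose methylation and box H/ACA RNAs guide the conversion of uridine to pseudouridine, mostly on ribosomal RNA in the nucleolus. Small Cajal body RNAs carry out the same reactions on spliceosomal RNAs in the Cajal body, and many combine both kinds of box in a single molecule. In human cells most are cut out of the introns of other genes, the host genes, and each is protected in a particle with a fixed set of core proteins.

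Sequences of 8 of the RNAs described below are given to show the boxes that define the classes, read from GRCh37, the build of the counts. SNORD8 lies in an intron of CHD8 at chr14:21865451-21865560 on the minus strand, SNORD23 in GLTSCR2 at chr19:48259110-48259219 on the plus strand, and SNORD10 in the SENP3-EIF4A1 locus at chr17:7480129-7480270 on the plus strand. Capitals mark TGATGA within the first 20 bases, the C box, and CTGA within the last 15 bases, the D box. SNORD10 holds the D box letters only.
SNORD8: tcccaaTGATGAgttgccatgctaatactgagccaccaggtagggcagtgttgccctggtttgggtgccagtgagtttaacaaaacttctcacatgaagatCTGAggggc
SNORD23: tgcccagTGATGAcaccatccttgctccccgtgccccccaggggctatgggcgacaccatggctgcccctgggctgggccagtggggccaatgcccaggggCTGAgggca
SNORD10: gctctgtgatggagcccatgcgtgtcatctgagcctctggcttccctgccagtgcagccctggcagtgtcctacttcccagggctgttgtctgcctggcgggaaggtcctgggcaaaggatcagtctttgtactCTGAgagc
SNORA62 lies in RPSA at chr3:39452545-39452697, SNORA49 in EP400 at chr12:132515769-132515904 and SNORA48 in the SENP3-EIF4A1 locus at chr17:7478031-7478165, each on the plus strand. Capitals mark the ACA within the last 8 bases.
SNORA62: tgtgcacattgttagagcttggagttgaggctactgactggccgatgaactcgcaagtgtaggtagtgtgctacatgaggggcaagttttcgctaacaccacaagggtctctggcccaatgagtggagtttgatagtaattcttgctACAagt
SNORA49: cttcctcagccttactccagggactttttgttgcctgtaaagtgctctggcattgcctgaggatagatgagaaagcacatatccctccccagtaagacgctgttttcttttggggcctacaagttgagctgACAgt
SNORA48: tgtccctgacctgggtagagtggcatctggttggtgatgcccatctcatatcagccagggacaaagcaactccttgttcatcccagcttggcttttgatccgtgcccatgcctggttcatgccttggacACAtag
SCARNA12 lies in PHB2 at chr12:7076500-7076769 and SCARNA4 in KIAA0907 at chr1:155895749-155895877, both on the minus strand. The first holds both box C/D motifs, marked in capitals, and the second the terminal ACA.
SCARNA12: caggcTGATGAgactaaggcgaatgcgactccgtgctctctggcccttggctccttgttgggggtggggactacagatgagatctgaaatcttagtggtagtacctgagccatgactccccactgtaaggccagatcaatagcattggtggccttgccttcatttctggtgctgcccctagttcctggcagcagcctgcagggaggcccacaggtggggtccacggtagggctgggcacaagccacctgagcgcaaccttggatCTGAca
SCARNA4: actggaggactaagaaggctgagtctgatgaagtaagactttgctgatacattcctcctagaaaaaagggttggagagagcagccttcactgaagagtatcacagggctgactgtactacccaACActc

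A GRCh37 position was found for 113 of the 178 members, 59 box C/D, 43 box H/ACA and 11 Cajal body RNAs. None of the 8 printed sequences overlapped an annotated exon of another gene. Of the 59 box C/D RNAs, 39 (66.1%) held TGATGA in the first 20 bases and 58 (98.3%) held CTGA in the last 15 bases on the RNA strand. In windows of the same length and strand upstream of each RNA these shares were 1.69% and 10.2%. ACA stood within the last 8 bases of 39 of the 43 box H/ACA RNAs (90.7%), against 16.3% of their windows. Among the 11 Cajal body RNAs, 4 held both box C/D motifs and 8 held ACA in the last 8 bases. In SCARNA12 that ACA shares a base with the D box, so SCARNA12 is in both counts. The others with ACA held no box C/D pair, so both architectures occurred in the class. These letter matches are descriptions of the sequence and not tests of guide function.

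The libraries held between 28218471 and 37473413 counted reads, and the scaling factors lay between 0.971 and 1.02. Epithelial markers were present, but not all of the intestinal ones. The 10 markers of colon epithelium summed to between 2223 and 2598 counts per 1000000 (CPM, scaled by library), mostly from the general epithelial genes KRT19, EPCAM, KRT8 and KRT18. Of the intestinal markers, CDX2 stood at 8.30 CPM and KRT20 at 2.57 CPM, while VIL1, CDX1 and CEACAM5 were each at or below 0.0249 CPM on average. By comparison, 4 fibroblast markers summed to at most 3.83 CPM and 4 leukocyte markers to at most 0.416 CPM. The RNA was purified on spin columns that retain short RNA poorly, a step shared by all libraries. In bulk libraries, fewer cells that carry an RNA and less of that RNA per cell cannot be told apart.

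The classes differed in the share of their annotated genes that reached the threshold, which is a raw count not scaled for length. A total of 89 of the 228 SNORD rows (39.0%) reached the mean count of 10, compared with 69 of 99 SNORA rows (69.7%) and 20 of 23 SCARNA rows (87.0%). No read was counted in any library for 88 SNORD rows, 4 SNORA rows and none of the SCARNA rows. Most of the silent SNORD rows belonged to the families SNORD113, SNORD114, SNORD115 and SNORD116, which are encoded in tandem arrays at imprinted loci. Their 95 rows, which are among the 228 SNORD rows and lower that class's share, gave no member. Of these, 83 were at 0 in all 8 libraries, and the highest mean count was 0.5. Among RNAs needed for cleavage of the ribosomal RNA precursor, a list of 15 that includes U3, U8 and U14, only SNORD22 had a row to analyse. Nothing can be said here on the levels of the others. At the threshold, the members just inside were SNORA13 (mean count 10), SNORD38B (10.125) and SNORD94 (10.25), and the rows just outside were SNORA79 and SNORD105B (both 9.375) and SNORD36B (9.125). The low-count filter of the test kept 177 of the 178 members and left out SNORD94.

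Levels were compared per length, as CPM per kilobase of the gene model, because the median length was 76 bases for box C/D, 135 for box H/ACA and 176.5 for Cajal body RNAs. The class medians were 13.8 CPM per kilobase for box C/D, 17.3 for box H/ACA and 21.2 for Cajal body RNAs, against 6.41 for all 13925 genes tested. The middle 50% of members ran from 7.05 to 31.4 in box C/D, from 6.05 to 49.2 in box H/ACA and from 7.53 to 57.7 in Cajal body RNAs, so the classes overlapped over most of their range. The order of the medians depended on which members entered. At a minimum mean count of 50 they were 42.9, 41.8 and 30.6 in the same order, and among members of at most 200 bases 14, 17.5 and 11.7. The levels were part of the rule that chose the members and were not tested.

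**Figure D1:**
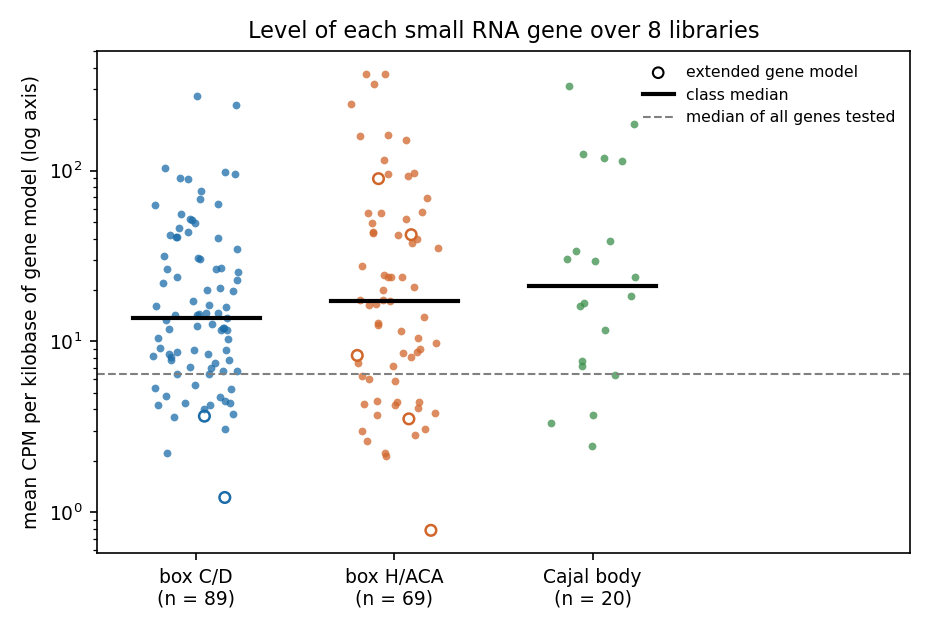
Mean CPM per kilobase of gene model over 8 libraries (log axis) for each of the 178 members, by class, where bars are class medians, open circles are the 7 members with an extended gene model and the dashed line is the median of all genes tested (6.41). The 3 classes overlap, and single members reach 370 in box H/ACA, 313 in Cajal body and 273 in box C/D RNAs.

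A few RNAs stood far above their class. In box C/D, SNORD22, which is needed for maturation of the small subunit ribosomal RNA, reached 273 CPM per kilobase, SNORD76, a methylation guide for the large subunit ribosomal RNA, reached 242, SNORD10 reached 104 and SNORD8, a methylation guide for the U6 spliceosomal RNA, reached 97.8. In box H/ACA, SNORA24 and SNORA62 led with 370 and 366 CPM per kilobase, followed by SNORA49 (320) and SNORA23 (246). Among Cajal body RNAs, SCARNA12 reached 313 CPM per kilobase, SCARNA16 188, SCARNA10, the guide U85 that modifies the U5 spliceosomal RNA, 124.6, and SCARNA21 119. Only 11 members had a mean count of at least 1000, 1 box C/D, 6 box H/ACA and 4 Cajal body RNAs.

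The largest raw counts were not the highest levels. SNORA33 had a mean count of 6249 and SNORA8 of 2845, but their gene models spanned 2045 and 1985 bases where RefSeq gives RNAs of 133 and 139 bases. Per length they came to 89.8 and 42.2 CPM per kilobase. A model at least 50 bases longer than the RefSeq RNA was found for 7 members, the others being SNORA38, SNORA5C, SNORA71E, SNORD48 and SNORD52, and their counts include reads from the added sequence. For 160 members the model had exactly the RefSeq length. A further limit is shared sequence, since 39 of the 113 placed members overlapped an annotated exon of another gene on either strand (retained introns not counted), 29 of them over their whole length. In those, reads of the other RNA and of the small RNA cannot be told apart.

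RNAs cut from the same host transcript were not always present at equal levels, although the members in NOP56 were close (11.5 and 11.7 CPM per kilobase). The lncRNA GAS5 was assigned 9 members, all box C/D, which ran from 6.95 CPM per kilobase for SNORD77 through 62.8 for SNORD79 to 242 for SNORD76. GAS5 itself stood at 71.3. The lncRNA SNHG1 holds 8 box C/D members, from 14.3 CPM per kilobase for SNORD31 through 88.8 for SNORD25 to 273 for SNORD22, with the host at 68.8. In RPL13A, which encodes a ribosomal protein, the 4 members lay between 5.33 and 16.2 CPM per kilobase under a host at 628. Wide and narrow ranges occurred in hosts of either kind. Members ran from 9.15 to 67.8 CPM per kilobase in the ribosomal protein gene RPL17, stood at 52.4 and 366 in RPSA, and ran from 4.76 to 14.5 in the lncRNA ZFAS1.

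A host gene of the table was assigned to 171 of the 178 members, and these hosts numbered 104. By the RefSeq type of the assigned host, protein-coding genes held 120 members, lncRNAs 48 and transcribed pseudogenes 3. The lncRNAs include SENP3-EIF4A1, with 3 members, and EEF1E1-BLOC1S5, loci that bear the names of other genes. The 7 without an assigned host were SCARNA2, SCARNA17, SNORA50C, SNORD60, SNORD81, SNORD93 and SNORD104, where SCARNA2 and SCARNA17 are known as RNAs with promoters of their own. SNORD81 matched 2 places in the genome and was placed at chr1:86057963 on the plus strand, so its lack of a host is uncertain. The level of a member relative to its host, both per kilobase, differed by class, with medians of 0.10 for box C/D, 0.35 for box H/ACA and 0.90 for Cajal body RNAs. It exceeded 1 for 30 members, 5 box C/D, 17 box H/ACA and 8 Cajal body RNAs. The highest ratios were 58.7 for SNORA49 over EP400, 48.2 for SNORA7B over RPL32P3 and 44.6 for SCARNA16 over SEC14L1. SNORA7B has a close copy in the genome, so its value is uncertain.

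The members varied between libraries of one treatment more than other genes did. Spread was measured as the coefficient of variation (CV), the SD over the mean of CPM within a treatment, averaged over both treatments. The median CV was 28.1% in box C/D, 28.6% in box H/ACA and 24.8% in Cajal body RNAs, against 7.55% over all genes tested. The difference held within ranges of count. Among members with a mean count of 100 to 1000, the medians were 25.1%, 25.6% and 23.4% in the same order, against 8.08% for all genes in that range. With a mean count of 10 to 100 they were 30.4%, 31.5% and 27.8%, against 20.7%. The dispersion fitted by edgeR, the squared variation beyond counting error, had medians of 0.0343, 0.0339 and 0.0254, compared with 0.00549 for all genes.

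**Figure D2:**
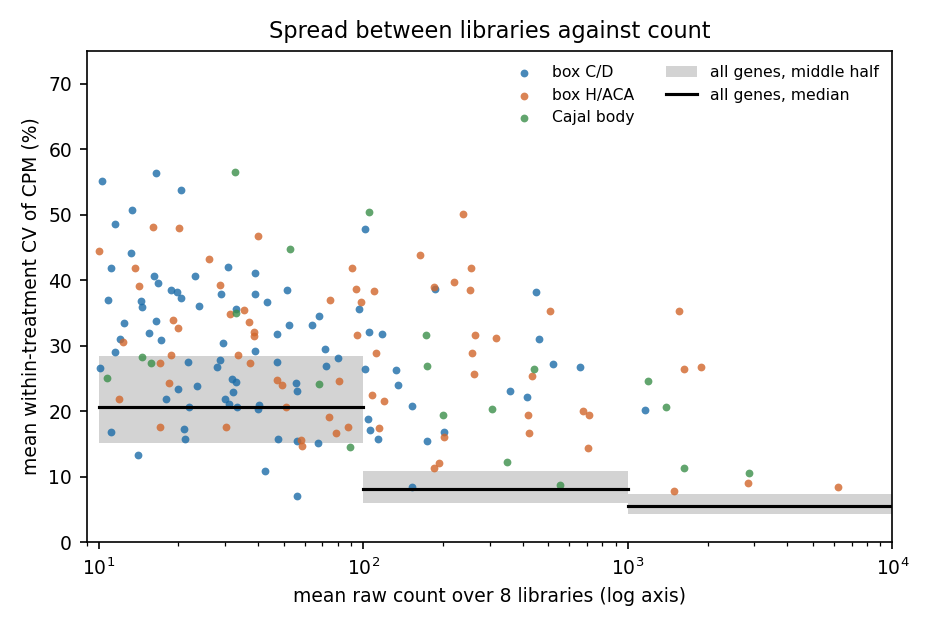
Mean within-treatment CV of CPM (%) against mean raw count (log axis) for each member, with the median and the middle 50% of all genes tested in 3 count ranges (the last covers every count of 1000 or more). Most members lie above the band of genes of like count, while SNORA49, SCARNA21 and SCARNA12 lie low.

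The spread was not shared by every abundant member. SNORA49 had a CV of 7.89%, with 41.6, 44.5, 38.8 and 48.7 CPM in DMSO libraries 1 to 4 and 41.4, 43.0, 47.4 and 45.7 CPM in lenalidomide libraries 1 to 4. SCARNA21 was as even, at 16.1, 17.5, 17.7 and 14.5 CPM in DMSO and 16.1, 17.4, 14.5 and 17.5 CPM with lenalidomide (CV 8.80%). For both RNAs the treatments overlapped and no library stood apart. SNORA23, at a similar count to SNORA49, had a CV of 35.3%, with 23.3, 53.6, 20.3 and 52.5 CPM in DMSO and 38.4, 58.8, 57.3 and 67.9 CPM with lenalidomide. Its DMSO libraries 1 and 3 were the lowest of all 8, and DMSO 2 and 4 lay among the lenalidomide libraries.

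Members with a mean count of at least 50 and the largest CV of their class showed the same pair of low libraries. SNORA74A, known as U19, gave 1.95, 9.27, 3.74 and 8.29 CPM in DMSO and 4.12, 8.20, 12.1 and 8.77 CPM with lenalidomide, a CV of 50.05%. SCARNA8 gave 0.830, 3.45, 1.96 and 3.48 CPM in DMSO and 1.46, 3.56, 5.84 and 4.51 CPM with lenalidomide (CV 50.4%). SNORD24, a methylation guide for the large subunit ribosomal RNA that lies wholly over an exon of RPL7A, gave 1.2, 4.0, 1.4 and 3.72 CPM in DMSO and 4.31, 2.62, 2.16 and 4.99 CPM with lenalidomide (CV 47.9%). In all 3 the treatments overlapped, DMSO 1 and DMSO 3 were below DMSO 2 and DMSO 4, and lenalidomide 1 was low for SNORA74A and SCARNA8 but not for SNORD24. The CVs of SNORD27, SNORA3B and SCARNA18, the second in each class, were 38.7%, 43.8% and 44.8%. Larger CVs, up to 56.5% for SCARNA4, occurred at mean counts under 50, and there the low libraries differed: DMSO 3 was lowest for SCARNA4 and SNORD42B, and lenalidomide 2 for SNORD19B (CV 56.4%) and SNORD94 (CV 55.2%).

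Across the classes, DMSO 3 was the lowest library for 96 of the 177 tested members (54.2%), compared with 19.3% of all genes. DMSO 1 was the lowest for 38 (21.5%), compared with 10.5% of all genes, and 27 of these were box H/ACA and 5 box C/D RNAs. One or the other was lowest for 134 members (75.7%), against a background of 29.8%. The median deviation of a class from its members' own means, on the log2 CPM scale, showed the same shape. In DMSO 3 it was -0.59 for box C/D, -0.41 for box H/ACA and -0.44 for Cajal body RNAs. In DMSO 1 it was -0.11, -0.48 and -0.29 in the same order, so box C/D RNAs were less low in that library. DMSO 2 and DMSO 4 lay between 0.15 and 0.25 in all classes, and the lenalidomide libraries between -0.11 and 0.33. The members' CVs were larger within DMSO than within lenalidomide for 124 of the 177 (70.1%), compared with 44.5% of all genes, with medians of 31.8% and 23.9%.

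**Figure D3:**
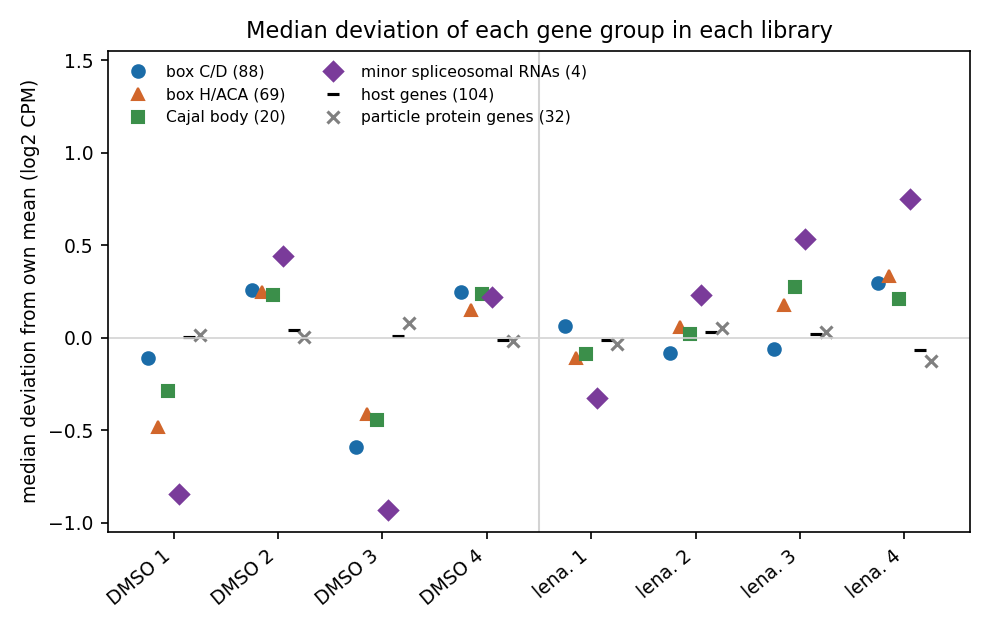
Median deviation from each gene's own mean (log2 CPM, vertical axis) in the 4 DMSO and 4 lenalidomide (lena.) libraries for the 3 classes, 4 minor spliceosomal RNAs, the 104 host genes and 32 genes of the particle proteins, with the number of genes in brackets. The small RNAs are low in DMSO 3 and DMSO 1, whereas host and protein genes stay between -0.12 and 0.08.

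Other structured small RNAs moved with the members in these libraries. The minor spliceosomal RNAs RNU11, RNU12, RNU4ATAC and RNU6ATAC had a median deviation of -0.85 in DMSO 1, -0.93 in DMSO 3 and 0.75 in lenalidomide 4. RMRP, the RNA of the mitochondrial RNA processing ribonuclease, gave 1244, 1790, 987 and 1641 CPM in DMSO and 1385, 1800, 1694 and 1694 CPM with lenalidomide. RNU11, which recognises splice sites of minor introns, gave 5.27, 16.0, 5.61 and 14.9 CPM in DMSO and 8.85, 13.7, 20.2 and 22.7 CPM with lenalidomide. For both, DMSO 1 and 3 were the lowest libraries. TERC, the telomerase RNA, was even by comparison (CV 11.7%). Genes outside the members with models of at most 200 bases deviated by -0.07 in DMSO 1 and -0.09 in DMSO 3. Recovery of short RNA in these libraries was not tested.

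The host genes were even across the libraries. Their median deviation stayed between -0.07 and 0.04 in every library, and their median CV was 6.44%. For 170 of the 171 members with a host, the CV of the member exceeded that of its host, the exception being SNORA49, whose host EP400 had a CV of 20.2%. A list of 20 tested noncoding host transcripts had its lowest median deviation in DMSO 3, at -0.17, within a range of 0.27 over the libraries. GAS5 stood at -0.26 and SNHG1 at -0.31 there, while SNHG6 stood at 0.17.

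**Figure D4:**
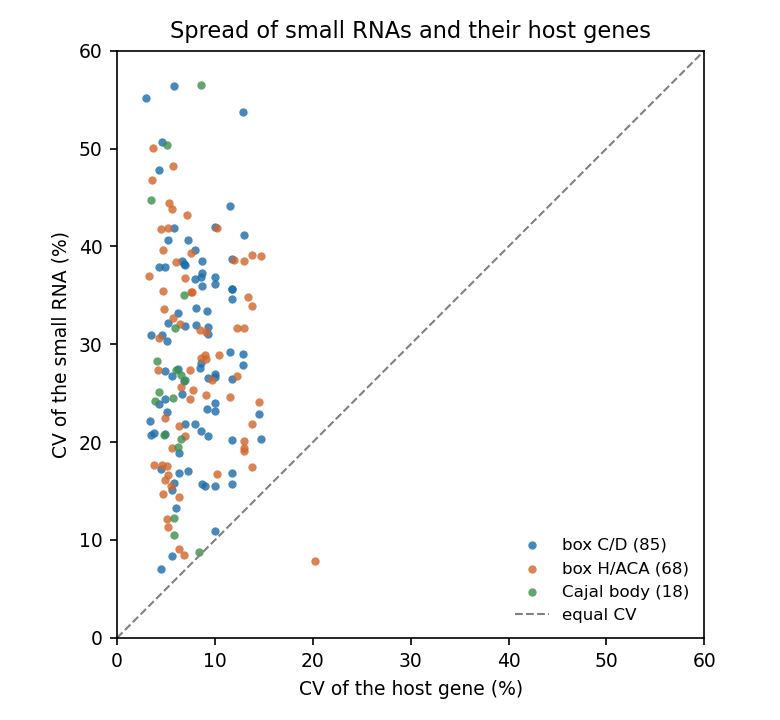
CV of each of 171 members against the CV of its host gene (both in %, mean of the within-treatment values), by class, with the line of equal CV dashed. All points except that of SNORA49, at 20.2% for the host and 7.89% for the RNA, lie above the line.

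The comparison of lenalidomide with DMSO asked whether the drug changed these RNAs, and no member passed the test. With edgeR's quasi-likelihood test and Benjamini-Hochberg adjustment over 13925 genes, 0 of 177 members had an adjusted p under 0.05, where 2 genes (0.0144%) did in the whole table. DESeq2 and edgeR's likelihood ratio test also called 0 members, where they called 0.0646% and 0.0862% of all genes. At an unadjusted p under 0.05 stood 12 members (6.78%), all of them higher with lenalidomide, against 4.18% of all genes in either direction, 3.26% higher and 0.919% lower. They were 5 box C/D RNAs (SNORD4B, SNORD8, SNORD12, SNORD22 and SNORD23), 5 box H/ACA RNAs (SNORA3B, SNORA48, SNORA53, SNORA62 and SNORA74B) and 2 Cajal body RNAs (SCARNA9L and SCARNA17). With DMSO 1 and DMSO 3 left out, 13 members stood at an unadjusted p under 0.05, of which 2 (1.13%) were higher and 11 (6.21%) lower with lenalidomide, against 2.31% and 2.43% of all genes in that fit. These 2 libraries were left out because the members were low in them, so a downward move of the members follows from that choice.

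The fold changes of box H/ACA and Cajal body RNAs leaned upwards, while box C/D RNAs stayed near the share of all genes. Without those 2 libraries most members of every class lay below 0. A log2 fold change above 0 was found for 120 of 177 members (67.8%), against 51.3% of all genes. In the classes it was 47 of 88 box C/D (53.4%), 58 of 69 box H/ACA (84.1%) and 15 of 20 Cajal body RNAs (75%). The median log2 fold changes were 0.03, 0.27 and 0.20 in the same order, against 0.00253 over all genes. Without DMSO 1 and DMSO 3 the medians were -0.19, -0.05 and -0.06, and 50 of 177 members (28.2%) lay above 0, against 49.4% of all genes. The pair was chosen because the members were low in it, so the turn of sign is a description of where the difference lies. Without DMSO 1 alone the medians were -0.01, 0.12 and 0.18, and without DMSO 3 alone -0.08, 0.18 and 0.04. The median half-width of the unadjusted 95% interval of a member's log2 fold change was 0.56, compared with 0.17 for all genes. At this spread, changes smaller than a member's own half-width could not be told from 0. The half-width is not the limit of the adjusted test, where larger changes also went uncalled, such as 0.91 for SNORD4B.

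Summed over members, box C/D RNAs took 191, 278, 158 and 274 CPM in DMSO and 239, 222, 257 and 298 CPM with lenalidomide. Box H/ACA RNAs took 580, 819, 560 and 777 CPM in DMSO and 676, 803, 798 and 833 CPM with lenalidomide, of which SNORA33 with its extended model made up 25.1%. Cajal body RNAs took 238, 313, 224 and 322 CPM in DMSO and 265, 296, 323 and 304 CPM with lenalidomide. In every class the treatments overlapped, with DMSO 1 and DMSO 3 as the 2 lowest libraries. The log2 ratios of the treatment means were 0.17, 0.18 and 0.11, and that of box H/ACA RNAs was 0.31 without the extended models.

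For 2 members every lenalidomide library lay above every DMSO library, which is 1.13% of those tested beside a background of 1.24%, and no member showed the reverse, beside 0.84%. SNORD4B, a methylation guide for the small subunit ribosomal RNA, gave 0.268, 0.276, 0.146 and 0.264 CPM in DMSO and 0.486, 0.332, 0.365 and 0.659 CPM with lenalidomide. Its log2 fold change was 0.91 ± 0.33 (SE, adjusted p = 0.999). SNORD23 gave 0.241, 0.248, 0.351 and 0.185 CPM in DMSO and 0.389, 0.422, 0.395 and 0.451 CPM with lenalidomide, a log2 fold change of 0.69 ± 0.30 (SE, adjusted p = 0.999). Both sat near the count threshold, with mean counts of 11.5 and 11.1, and SNORD4B lies wholly over an exon of its host RPL23A, which encodes a ribosomal protein.

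Among the abundant members, SNORA62 had the largest shift at an unadjusted p under 0.05. It gave 29.5, 59.8, 44.9 and 50.1 CPM in DMSO and 49.8, 88.7, 56.0 and 72.0 CPM with lenalidomide. DMSO 1 was the lowest library and lenalidomide 2 the highest, and the treatments overlapped between 49.8 and 59.8 CPM. The log2 fold change was 0.53 ± 0.19 (SE, unadjusted p = 0.014, adjusted p = 0.999), and leaving out single libraries moved it between 0.36 and 0.68. Without DMSO 1 and DMSO 3 it was 0.27. Its host RPSA, a ribosomal protein gene, stood at 533 ± 37.2 CPM in DMSO and 529 ± 92.3 CPM with lenalidomide (SD, n = 4), with a log2 fold change of -0.01.

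**Figure D5:**
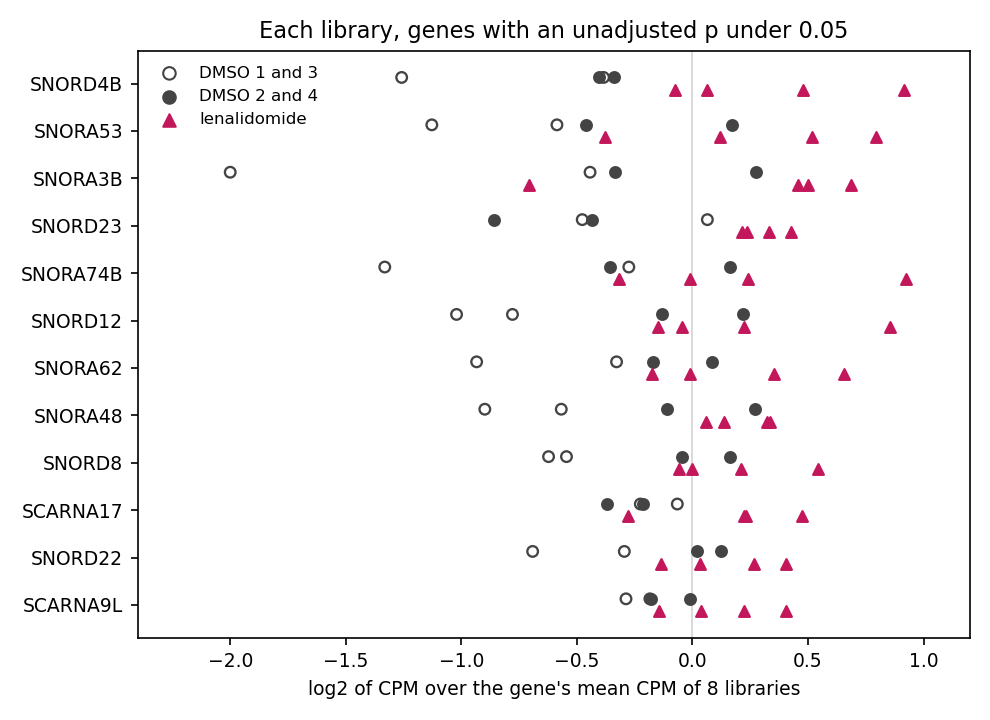
CPM of the 12 members with an unadjusted p under 0.05 in each library, as log2 of the ratio to the member's mean over 8 libraries, with DMSO 1 and 3 as open circles, DMSO 2 and 4 as filled circles and lenalidomide as triangles. The treatments are separate for SNORD4B and SNORD23 alone, and in most rows the open circles lie farthest left.

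SNORD22 and SNORD8 showed the same arrangement. SNORD22 gave 21.3, 37.5, 28.1 and 34.9 CPM in DMSO and 31.3, 35.2, 41.4 and 45.6 CPM with lenalidomide, a log2 fold change of 0.33 ± 0.15 (SE, adjusted p = 0.999). SNORD8 gave 7.31, 11.9, 6.92 and 10.3 CPM in DMSO and 10.2, 15.5, 10.6 and 12.3 CPM with lenalidomide, a log2 fold change of 0.42 ± 0.17 (SE, adjusted p = 0.999). In both RNAs DMSO 1 and DMSO 3 were the lowest of the 8 libraries, and DMSO 2 and DMSO 4 fell within the range of the lenalidomide libraries. Without that pair the log2 fold changes were 0.08 for SNORD22 and 0.12 for SNORD8, and that of SNORD22 was 0.19 without DMSO 1 alone. Their hosts SNHG1 and CHD8 had log2 fold changes of 0.10 and 0.04.

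For 2 Cajal body RNAs the 4 DMSO libraries lay close together. SCARNA9L, a relative of the methylation guide SCARNA9 for the U2 spliceosomal RNA, gave 8.46, 10.3, 9.09 and 9.11 CPM in DMSO and 12.1, 13.7, 9.34 and 10.6 CPM with lenalidomide, a log2 fold change of 0.31 ± 0.11 (SE, adjusted p = 0.999). SCARNA17, a guide for the U12 and U4 spliceosomal RNAs, gave 2.28, 2.29, 2.54 and 2.06 CPM in DMSO and 3.70, 3.11, 2.19 and 3.12 CPM with lenalidomide, a log2 fold change of 0.40 ± 0.16 (SE, adjusted p = 0.999). In both, lenalidomide 3 fell within the DMSO range and the other 3 lenalidomide libraries lay above it. Without DMSO 1 and DMSO 3 the log2 fold changes were 0.23 for SCARNA9L and 0.47 for SCARNA17. Reads shared between SCARNA9L and SCARNA9 could not be followed in these counts.

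The remaining members singled out by level, spread or p gave no adjusted p below 0.999. SCARNA4 had the largest log2 fold change among Cajal body RNAs, 0.91 ± 0.43 (SE), on 0.402, 1.19, 0.175 and 0.950 CPM in DMSO and 0.876, 0.754, 1.92 and 1.63 CPM with lenalidomide. DMSO 1 and 3 were lowest, the treatments overlapped, and without those libraries the log2 fold change was 0.27. SNORA53 stood at 0.784 ± 0.295 CPM in DMSO and 1.32 ± 0.440 CPM with lenalidomide, SNORA3B at 3.68 ± 1.94 and 6.17 ± 2.16 CPM, and SNORA48 at 2.69 ± 0.950 and 3.74 ± 0.355 CPM (SD, n = 4). SNORA24 stood at 43.0 ± 10.96 and 54.0 ± 14.8 CPM, SNORD76 at 17.6 ± 6.11 and 21.6 ± 4.04 CPM, and SNORD10 at 14.5 ± 3.63 and 16.3 ± 4.82 CPM in the same order. SCARNA12 stood at 82.2 ± 9.65 and 86.6 ± 8.07 CPM, SCARNA16 at 33.0 ± 10.1 and 37.3 ± 6.96 CPM, and SCARNA10 at 38.7 ± 10.7 and 43.5 ± 6.06 CPM.

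In some hosts the members' log2 fold changes lay on both sides of 0, and in others all lay on one side. All lay below 0 in GNL3 (-0.35 to -0.07) and RABGGTB (-0.44 to -0.03), and above 0 in RPSA (0.27 to 0.53). GAS5 and SNHG1 had members on both sides. In GAS5 the log2 fold changes of the 9 members assigned to it ran from -0.34 for SNORD75 to 0.40 for SNORD47, with the host at -0.02. In SNHG1 those of the 8 members ran from -0.23 for SNORD28 to 0.33 for SNORD22, with the host at 0.10. None of these members had an adjusted p under 0.05, and differences between members of one host were not tested. The ranges in GAS5 and SNHG1 lay within 0.56 on either side of 0, the median half-width of the 95% interval over all members. SNORD22 was estimated more closely, with a half-width of 0.32 and an unadjusted interval that excluded 0.

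None of the genes that make and carry the RNAs passed the test. No host of the 104 tested had an adjusted p under 0.05, beside 0.0144% of all genes. At an unadjusted p under 0.05 stood 2 of the 104, a share below the 4.18% of all genes. They were EP400 (log2 fold change 0.39) and SRCAP (0.24), which hold SNORA49 and SNORA30 and both encode subunits of chromatin remodelling complexes. The median log2 fold change of the hosts was -0.01. Of 32 genes for proteins of these particles, none passed at an adjusted or an unadjusted p under 0.05 with edgeR. The median log2 fold change was -0.07 for the 4 box C/D core proteins (FBL, NOP56, NOP58 and SNU13), -0.02 for the 4 H/ACA core proteins (DKC1, NHP2, NOP10 and GAR1), -0.03 for 11 assembly factors, -0.05 for 4 Cajal body proteins, -0.07 for 6 proteins of the U3 particle and -0.03 for 3 exonucleases that trim the RNAs. Of 20 noncoding host transcripts and 7 other small structured RNAs tested, none passed at either threshold, with medians of 0.02 and 0.23.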

How the data were processed

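Total RNA of Hct116 cells was measured by RNA-seq in 8 libraries, 4 with DMSO and 4 with lenalidomide. Per the study's methods, the authors prepared ScriptSeq v2 libraries, aligned the reads to hg19 (GRCh37) with QuasR and counted them over UCSC known gene exons, and they deposited raw counts per gene with the exonic width. The submitters' processing notes name bcl2fastq 2.17. The strand setting of the counting is not given in the sources used here.

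Genes with enough counts (filterByExpr, minimum count 10, minimum total 15) were tested with edgeR 4.0.16 in R 4.3.3 (quasi-likelihood, TMM scaling, Benjamini-Hochberg adjustment, threshold 0.05), 13925 genes in all, and only rows of the members were printed. The script was tested on simulated data. Depth ran from 28218471 to 37473413 counts per library. DESeq2 1.42.0, a likelihood ratio test, other scaling and filters, a replicate block and libraries left out were tried as alternatives. Log2 CPM used a prior count of 2, and 95% intervals are from the fit.

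Positions and sequences came from GRCh37 with GENCODE annotation, taking entries of like length. Hosts were the genes that hold a member in a RefSeq table. For the 113 members placed on GRCh37, genes that GENCODE puts on the other strand were left out. For the other members strand was not checked. Upstream windows ended 300 bases before each RNA. Copies were matches of at least 95% identity over 90% of the length. Gene groups were the members by class, their hosts, particle proteins, noncoding hosts and other small RNAs.

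Named members were those with an adjusted p under 0.05, the 4 highest levels per length, the 3 smallest p and the 2 largest CVs (mean count at least 50) in each class, the pre-rRNA cleavage list, the 3 rows on each side of the mean count of 10, and their hosts. SNORD12, SNORA74B and other members outside this rule were named after their values were seen. The members and lists were chosen with earlier results of these data known.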

Additional observations from a re-analysis of the deposited data

Results flagged for a closer look

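In 62 groups of 4 libraries, one for each treatment of the members named above and the class sums, 1 value stood apart from the other 3 of its group by Dixon's test. SNORD4B had 0.146 CPM in DMSO 3, whereas the other DMSO libraries lay between 0.264 and 0.276 CPM. The counts behind these values are small, and chance alone gives about 1 such value in 20 groups.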

How the results depend on the processing

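No member was called under any alternative except the replicate block. For the 27 named and tested members, 377 of 399 alternative log2 fold changes had the same sign and call, 21 changed sign and 1 passed the threshold. Genes called in the whole table numbered 12 in the likelihood ratio test, 9 in DESeq2, 4 when all genes with a read were tested, and 0 without DMSO 1 and 3, and between 1 and 2 with single libraries left out. Members at an unadjusted p under 0.05 numbered 12 (6.78%, against 4.18% of all genes in the same fit). They numbered 7 with DESeq2 (3.95%, against 3.43%), 16 with the likelihood ratio test (9.04%, against 4.38%) and 21 when all genes with a read were tested (11.8%, against 4.25%). Without DMSO 1 they were 3 (1.69%, against 2.56%), without DMSO 2 29 (16.5%, against 3.08%) and without DMSO 4 25 (14.1%, against 4.23%). Without DMSO 3 they were 11 (6.18%, against 6.03%), 6 higher and 5 lower with lenalidomide. Leaving out lenalidomide 1 gave 22 (12.4%, against 4.29%), lenalidomide 2 11 (6.18%, against 7.42%), lenalidomide 3 8 (4.49%, against 4.14%) and lenalidomide 4 6 (3.39%, against 2.19%). The cause was not tested.

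With the replicate number as a block, 6 genes and 1 member were called, and 29 members (16.4%) stood at an unadjusted p under 0.05, against 5.47% of all genes. The member was SNORA62 (log2 fold change 0.54, adjusted p = 0.00591). Libraries of the same number correlated by 0.03, -0.02, 0.03 and 0.27, and 3 of the 8 libraries correlated best with the library of their own number, so the numbers were not taken as pairs.

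Without DMSO 1 and 3, an alternative chosen after seeing the data, the median log2 fold changes turned to -0.19 for box C/D, -0.047 for box H/ACA and -0.061 for Cajal body RNAs. The log2 fold change turned to -0.14 for SCARNA10, -0.063 for SCARNA12, -0.15 for SCARNA16, -0.36 for SCARNA18, 0.025 for SCARNA21, -0.17 for SNORA13, -0.077 for SNORA49, -0.086 for SNORA74A, -0.12 for SNORD10, -0.15 for SNORD24, -0.36 for SNORD27 and -0.060 for SNORD76. With single libraries left out, the box C/D median ran from -0.081 to 0.16, SCARNA21 from -0.065 to 0.046, SNORA13 from -0.023 to 0.41, SNORA49 from -0.021 to 0.093 and SNORD27 from -0.092 to 0.35.

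With a minimum mean count of 50, box C/D kept 34 and box H/ACA 43 members, and the median levels were 42.9, 41.8 and 30.6 CPM per kilobase for box C/D, box H/ACA and Cajal body RNAs. With a minimum of 5 the box H/ACA median was 13.4, and with Cajal body RNAs of at most 200 bases that median was 11.7. Fewer members enter at the higher minimum by construction.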
